A study of Homo sapiens with 12 samples.

Results

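The input mRNA of HCT116 cells was compared between MEK1/2 inhibition and solvent, gene by gene and then by functional class. HCT116 is a human colorectal cancer cell line. Trametinib, which inhibits the kinases MEK1 and MEK2, was applied at 100 nM for 24 h to one group and its solvent DMSO to the other, with 3 input libraries each. All dishes received cycloheximide, an inhibitor of translation elongation, shortly before lysis. Input RNA was an aliquot of the cleared cytoplasmic lysate that was depleted of ribosomal RNA, fragmented at random by alkali and selected for lengths of 25 to 35 nt. A gene was kept when 3 or more of the 6 input libraries had 10 or more counts for it, which held for 10663 of the 15798 genes listed. Of the 12 libraries of the series, the 6 others hold ribosome footprints from the same lysates. Their values are given only beside those of input.

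In the MAPK cascade, RAS activates RAF kinases, RAF activates MEK, and MEK activates ERK. ERK phosphorylates transcription factors of the ETS and AP-1 families, which drive cyclin D1, the MYC gene and a set of feedback inhibitors that dampen the cascade itself. In colorectal cancer cells this pathway is a main drive of cell cycle entry and growth, and trametinib blocks it at MEK.

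Input libraries held between 2276693 and 2845568 counts inside open reading frames, against 10127477 to 19181588 in the footprint libraries, so that input is the less precise readout for weakly expressed genes. The trametinib libraries were closer to each other than the DMSO libraries. The first principal component, with 73.4% of the variance, separated the treatments, and the second, with 11.7%, spread the DMSO replicates, with replicates 1 and 3 at its ends. Where leaving out 1 library moved a printed change of a named gene by more than 1.5 times in fold, the value without that library is given at the end of the paragraph. Of the colon epithelial markers, EPCAM, CDH1, KRT8, KRT18 and KRT19 were present in every library, while CDX1 and VIL1 were at 0 in all 6. The summed level of this list was 12276 to 18813 normalized counts in DMSO and 20567 to 26080 in trametinib. The difference lay mostly in KRT8 and KRT19. KRT18 overlapped between groups, at 5522, 3024 and 3298 in DMSO and 2510, 3672 and 4029 in trametinib, as did EPCAM and CDX2. Markers of immune cells summed to 0 to 0.993 in DMSO and 5.48 to 8.78 in trametinib, those of endothelium to 1.99 to 12.7 in DMSO and 23.0 to 26.3 in trametinib, mostly VWF, and those of fibroblasts to 19.03 to 36.5 and 52.6 to 70.2, mostly COL1A1 and COL3A1, while PTPRC, CD3E, CDH5 and PDGFRA were at or near 0. Among the fibroblast markers, COL1A1 overlapped between groups, at 32.9, 17.2 and 34.8 in DMSO and 20.2, 15.4 and 38.4 in trametinib. COL3A1 was at 0, 0.906 and 0 in DMSO and 31.3, 46.1 and 27.4 in trametinib. The part of other cells in the changes below was not tested.

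Trametinib changed many mRNAs, in both directions and in similar numbers. Of the 10663 genes tested, 1665 (15.6%) were higher and 1782 (16.7%) were lower at an adjusted p under 0.05 in edgeR's quasi-likelihood test. At least 2-fold changes were found for 718 of the higher and 913 of the lower genes. The groups did not overlap in 1636 of the 1665 higher and 1748 of the 1782 lower genes. Separate groups are therefore usual for a called gene and no finding for single genes below. Without trametinib replicate 2 the number of higher genes was 1090. The median change over all tested genes was -0.00145 on the log2 scale, with quartiles of -0.41 and 0.39 and a median standard error of 0.217. Changes below are log2 of trametinib over DMSO ± standard error, and values per library are counts normalized by TMM, in the order of replicates 1 to 3. Because libraries are scaled to each other, a change shared by all mRNAs cannot be seen, and less mRNA per cell cannot be told apart from fewer cells.

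**Figure D1:**
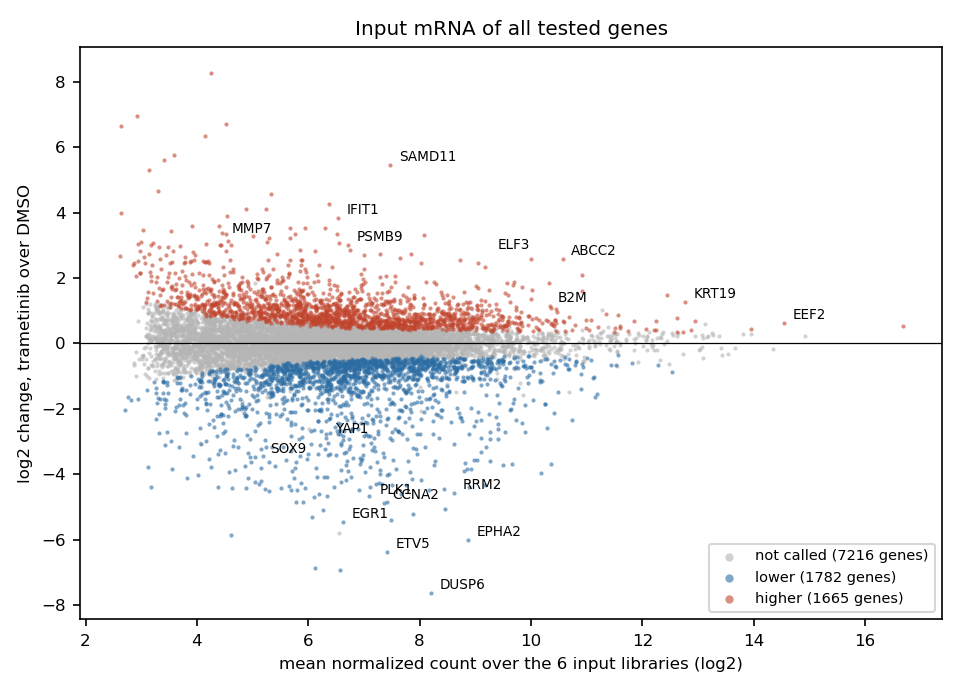
Log2 change in input (trametinib over DMSO, vertical) against the log2 mean normalized count over the 6 input libraries (horizontal) for 10663 genes, coloured by call. DUSP6 lies lowest among the labelled genes at -7.63, and SAMD11 highest at 5.45.

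Genes were grouped into 50 lists by function, chosen with earlier results of these data known. Some genes, such as SESN2, CALR and EPHB2, are in several lists, so their calls are counted in each and the lists are not independent. A count in parentheses after a number of called members, such as 3 without DMSO replicate 1, is that number refitted without the named library, given where it changed by more than 1.5 times. All values come from reads inside coding exons. Counts of called members are to be read beside the 15.6% higher and 16.7% lower over all tested genes. The medians of the lists ran from -3.60 for replication-dependent histones to 1.24 for interferon-stimulated genes. The 1521 tested genes in any list had 221 higher and 513 lower calls, while the 9142 genes in no list had 1444 and 1269, so the lists hold relatively more of the decreases.

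**Figure D2:**
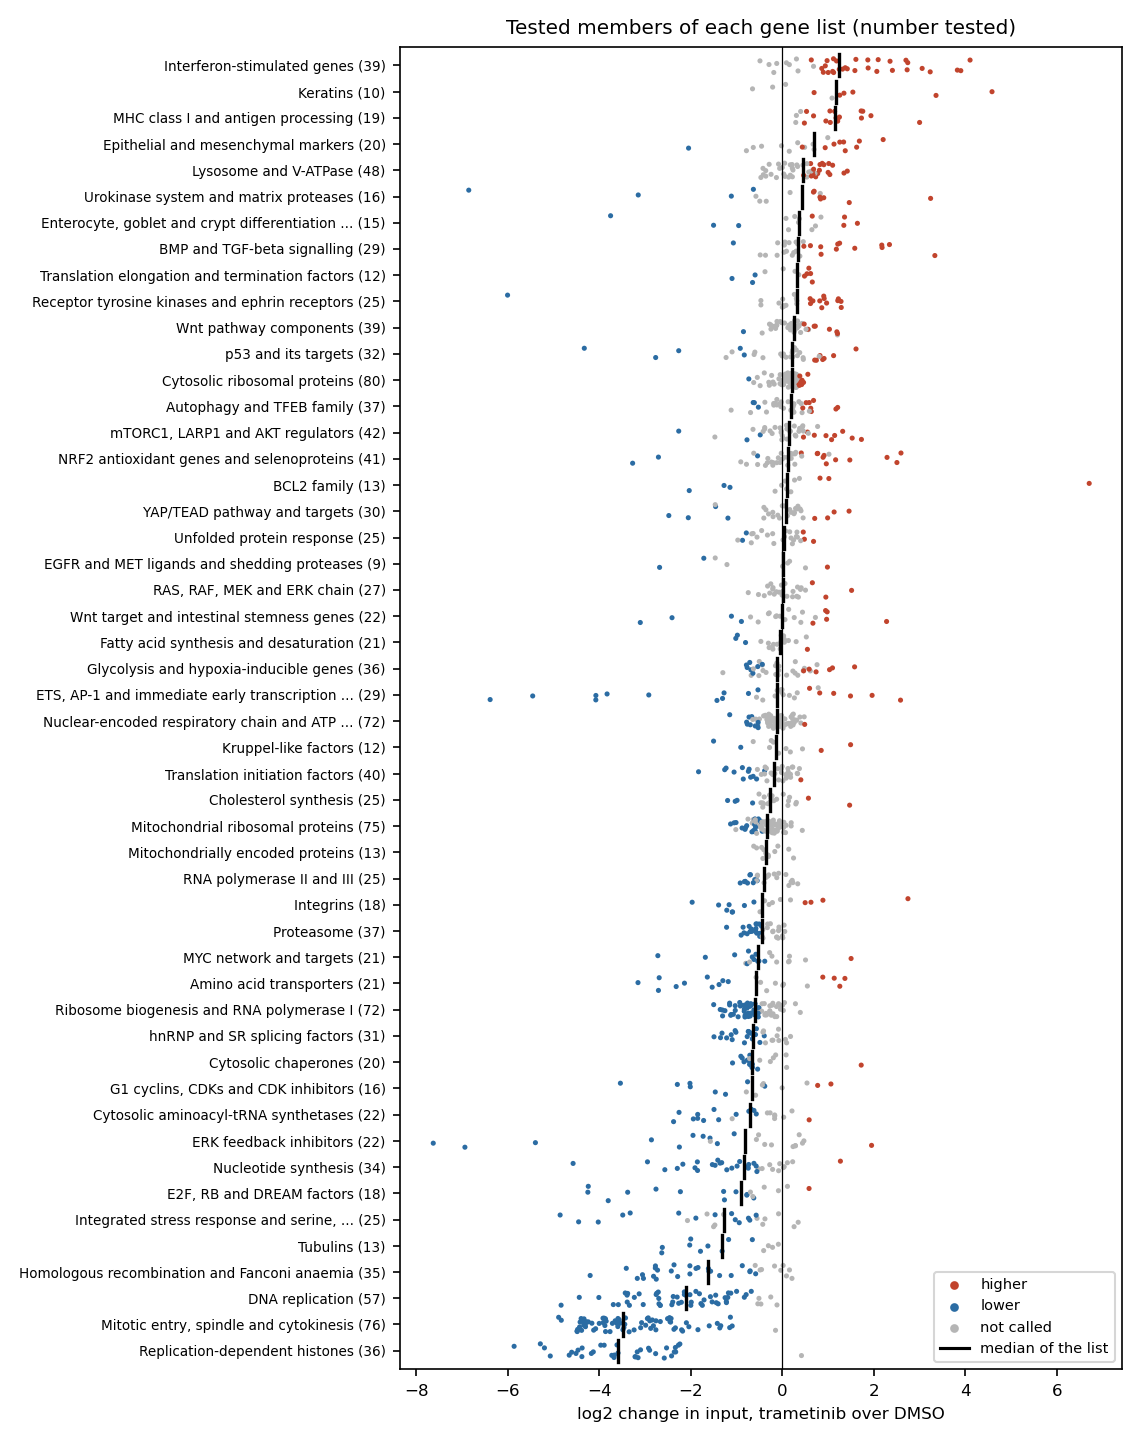
Log2 change in input of each tested member (points) by gene list, ordered by the median of the list (black bar), with the number of tested members in parentheses. Histone, mitotic and DNA replication lists lie lowest, with medians of -3.60, -3.48 and -2.11, and interferon-stimulated genes, keratins and MHC class I genes highest, with 1.24, 1.17 and 1.14.

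Several feedback inhibitors of the ERK cascade were nearly lost. Of the 24 feedback inhibitors listed, 22 were tested, 10 were lower and 1 was higher (3 without DMSO replicate 1). The higher one was DUSP10, a phosphatase of stress-activated kinases (1.95 ± 0.40, adjusted p = 0.00215). DUSP6, a phosphatase that inactivates ERK (ENSG00000139318, chr12:89347235-89352501, minus strand, GRCh38, Gencode), had 683, 569 and 512 normalized counts in the DMSO libraries and 5.06, 3.29 and 0 in the trametinib libraries. The groups lay far apart, and the change was -7.63 ± 0.35 (adjusted p = 6.13e-09). SPRY4, a Sprouty inhibitor of receptor signaling, had 247, 122 and 199.7 against 2.02, 1.10 and 1.10 (adjusted p = 4.96e-08), so that the trametinib libraries held at most 3 reads each. DUSP4, a nuclear phosphatase of MAP kinases, changed by -5.40 ± 0.35 (adjusted p = 1.71e-07), and SPRED2, which keeps RAF from being activated, by -2.86 ± 0.26 (adjusted p = 1.88e-06). Changes of DUSP6 and DUSP4 were -8.38 and -6.11 without trametinib replicate 1.

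Transcription factors at the end of the cascade changed in both directions. In the list of ETS, AP-1 and immediate early factors, 11 of 29 tested members were lower and 6 were higher, and the median was only -0.12. EGR1, the immediate early zinc finger factor, had 132, 227 and 219.6 in DMSO and 4.04, 2.19 and 6.58 in trametinib, a change of -5.46 ± 0.35 (adjusted p = 6e-08). The PEA3 factors ETV4 and ETV5 changed by -4.08 ± 0.31 and -6.39 ± 0.65 (adjusted p = 2.9e-07 and 0.000197), and the AP-1 subunit FOSL1 by -4.08 ± 0.53 (adjusted p = 0.000712). None of these groups overlapped. In the other direction, ELF3, an ETS factor of epithelial differentiation, had 347, 244 and 284 in DMSO and 1650.2, 1822 and 1763 in trametinib, so that every trametinib library was above every DMSO library. Its change was 2.58 ± 0.16 (adjusted p = 4.58e-08). FOSL2, another FOS-related AP-1 subunit, changed by 1.96 ± 0.20 (adjusted p = 5.65e-06), against the direction of FOSL1. The change of FOSL1 was -3.45 without DMSO replicate 1.

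Few genes of the cascade itself passed the test, while many receptors that feed it were higher. Of the 27 tested genes between RAS and the ERK-activated kinases, 3 were higher, 0 were lower and the median was 0.00. The higher genes were the RAS relative MRAS (0.95 ± 0.32, adjusted p = 0.0378), the RAS exchange factor SOS2 (0.65 ± 0.20, adjusted p = 0.0226) and RPS6KA2, an RSK kinase that ERK activates, with 40.2, 24.5 and 34.8 in DMSO and 78.9, 99.9 and 105 in trametinib (1.51 ± 0.23, adjusted p = 0.000247). The number of higher members became 1 without DMSO replicate 2 or trametinib replicates 1 or 3, and that of lower members 1 without trametinib replicate 1. MAP2K1, which encodes MEK1, had 237, 213 and 212 in DMSO and 169, 195 and 165 in trametinib and did not pass the test (-0.32 ± 0.16, adjusted p = 0.133). The call of MRAS was lost without DMSO replicates 2 or 3 or trametinib replicates 1 or 3 (adjusted p of up to 0.214) and with DESeq2 (adjusted p = 0.0885) and that of SOS2 without DMSO replicate 2 or trametinib replicates 1, 2 or 3 (adjusted p of up to 0.0738).

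Among receptor tyrosine kinases, 12 of 25 tested members were higher and 1, EPHA2, was lower (2 without DMSO replicate 2). ERBB3, the member of the EGFR family with little kinase activity of its own, had 222, 209 and 166 in DMSO and 363, 413 and 349 in trametinib, without overlap (0.91 ± 0.16, adjusted p = 0.000769). EPHB6, an ephrin receptor, changed by 1.22 ± 0.28 (adjusted p = 0.00427). EGFR did not pass the test, with 269, 233 and 213 against 259.9, 317 and 313 (adjusted p = 0.152). EPHA2, an ephrin receptor that the ERK pathway induces, fell from 1407, 665 and 700.4 to 11.1, 15.4 and 16.5 (-6.01 ± 0.37, adjusted p = 5.73e-07). Of 9 tested ligand and shedding protease genes 1 was higher (0 without trametinib replicate 1) and 2 were lower. The sheddase ADAM10 changed by 0.98 ± 0.26 (adjusted p = 0.013), and the EGFR ligands TGFA and HBEGF by -1.72 ± 0.32 and -2.69 ± 0.49 (adjusted p = 0.00105 and 0.00108). The ligand AREG had 5075, 1367 and 789 in DMSO and 1175, 809.9 and 626 in trametinib, with overlapping groups and a wide spread in DMSO, and its change of -1.47 ± 0.79 did not pass (adjusted p = 0.232). The call of ADAM10 was lost without trametinib replicate 1 (adjusted p = 0.0526). The change of AREG was -0.31 without DMSO replicate 1.

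**Figure D3:**
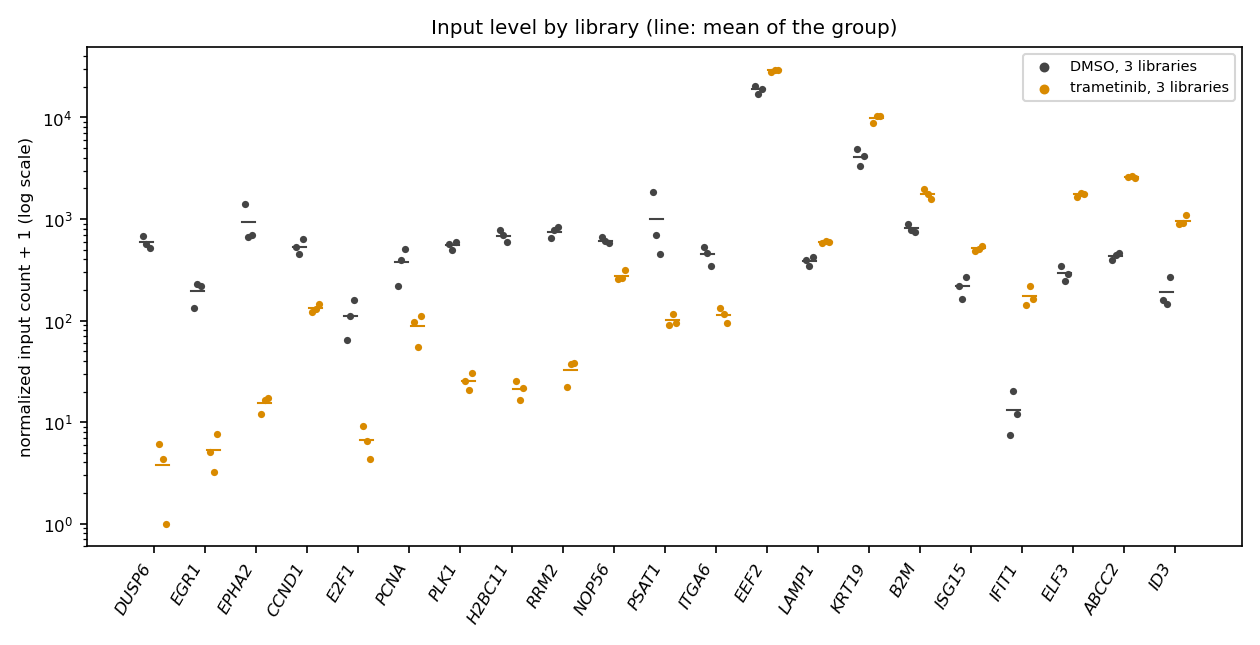
Normalized input count plus 1 (log axis) of 21 genes in the 3 DMSO and 3 trametinib libraries, with a line at the mean of each group. The groups of every gene shown are separate, as in 1636 of all 1665 higher and 1748 of all 1782 lower genes. The genes run from DUSP6, E2F1 and PLK1 on the falling side to IFIT1, ELF3 and ID3 on the rising side.

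Genes of cell cycle entry were lower at several levels. CCND1, which encodes cyclin D1 (ENSG00000110092, chr11:69641156-69654474, plus strand), had 526, 448 and 629.9 in DMSO and 119, 129 and 146 in trametinib (-2.02 ± 0.17, adjusted p = 1.04e-06). In the G1 list 8 of 16 tested members were lower and 2 were higher (1 without DMSO replicate 1 or trametinib replicates 2 or 3), among the former the kinase CDK2 (-1.24 ± 0.21, adjusted p = 0.000455) and its binding subunit CKS1B (-1.47 ± 0.20, adjusted p = 7.02e-05). The higher ones were the kinase CDK6 (0.77 ± 0.27, adjusted p = 0.0392) and the inhibitor CDKN1C (1.06 ± 0.24, adjusted p = 0.00381). MYC, the growth regulator, had 1209, 836 and 1066 against 604, 590.4 and 666 and changed by -0.74 ± 0.16, without overlap (adjusted p = 0.00253). Of 21 tested members of the MYC network and its targets, 11 were lower (7 without trametinib replicate 3) and 1 was higher (2 without DMSO replicate 1). The higher member was MXD4, a MAX partner that opposes MYC, at 78.5, 70.7 and 60.6 in DMSO and 190.1, 194 and 211 in trametinib (1.50 ± 0.17, adjusted p = 1.99e-05). PA2G4, a growth-linked MYC target, changed by -1.04 ± 0.15 (adjusted p = 0.000147). The call of CDK6 was lost without DMSO replicates 1 or 2 or trametinib replicates 2 or 3 (adjusted p of up to 0.185) and with DESeq2 (adjusted p = 0.0605).

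E2F factors bind RB and switch on S phase genes, and the DREAM complex represses cell cycle genes in quiescent cells. Of 18 tested genes of this group, 12 were lower and 1 was higher. E2F1 had 63.9, 109 and 159.9 in DMSO and 8.09, 5.49 and 3.29 in trametinib (-4.25 ± 0.42, adjusted p = 6.81e-06). MYBL2 and FOXM1, which drive late cell cycle genes, changed by -3.38 ± 0.32 and -2.76 ± 0.24 (adjusted p = 1.46e-05 and 9.66e-07). RB1 itself was lower by a small amount (-0.63 ± 0.16, adjusted p = 0.01). The higher member was RBL2, the p130 pocket protein of the DREAM complex, with 217, 217 and 232 in DMSO and 325, 330.3 and 342 in trametinib, without overlap (0.58 ± 0.14, adjusted p = 0.00733).

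The machinery of DNA replication and mitosis fell almost as a whole. Of 57 tested DNA replication genes 52 were lower and 0 higher (median -2.11), and of 76 mitotic genes 75 were lower and 0 higher (median -3.48). Leaving out any 1 library kept the counts of lower members between 50 and 53 and between 74 and 75. The 1 mitotic gene that was not called was CDC25B, a phosphatase that activates CDK1, at -0.15 ± 0.19, a member named after its value was seen.

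Mitotic kinases and cyclins were among the lower genes. PLK1, the kinase of mitotic entry and spindle poles, had 568, 491 and 598 in DMSO and 24.3, 19.8 and 29.6 in trametinib (-4.48 ± 0.20, adjusted p = 6.13e-09). CCNB1, cyclin B1, had 968, 990.4 and 831 and 65.7, 87.8 and 81.2 (-3.57 ± 0.17, adjusted p = 6.13e-09). The values of both genes were far apart between groups and close within them. CCNA2, AURKB and CDK1, which encode cyclin A2, Aurora B and the kinase that both cyclins bind, changed by -4.89, -4.83 and -4.34. TOP2A, the topoisomerase that untangles sister chromatids, changed by -3.66 ± 0.18 (adjusted p = 6.13e-09).

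In DNA replication the decreases were more graded. CDC6 and CDC45, which license and fire origins, changed by -3.59 ± 0.24 and -4.84 ± 0.38 (adjusted p = 1.03e-07 and 3.58e-07). PCNA, the sliding clamp of DNA polymerases, had 216, 395 and 511 in DMSO and 96.1, 53.8 and 109.7 in trametinib (-2.11 ± 0.34, adjusted p = 0.00141), and MCM5, a subunit of the replicative helicase, 306, 551 and 679 and 114, 113 and 119.6 (-2.14 ± 0.25, adjusted p = 4.17e-05). For both genes DMSO replicate 1 was the lowest of its group and still above every trametinib library. The median of the replication list in DMSO replicate 1 was -0.45 relative to the DMSO mean, against 0.21 and 0.21 in the others, while the trametinib libraries lay between -2.06 and -1.89.

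Promoters of these genes are shown because many late cell cycle genes share a pair of elements, a CCAAT box and a cell cycle homology region (CHR), and S phase genes an E2F site. Letters were searched on both strands in the 250 bases upstream of each start in RefSeq (GRCh38.p14). CCAAT was present in 48 of 66 matched mitotic promoters (72.7%), against 35.6% of 8716 tested genes with a promoter in the table and 33.0% of all 27195 promoters. TTTGAA, a CHR form, was present in 29 (43.9%), against 7.76% and 13.6%. An E2F form (TTTGGCGC, TTTCCCGC or TTTCGCGC) was found in 13 of 49 DNA replication promoters (26.5%) and 6 of 15 of the E2F, RB and DREAM list (40.0%), against 4.23% and 2.39%. Matches that shared bases with another motif were counted for both. CCAAT was also present in 21 of 24 unfolded protein response promoters (87.5%) and 15 of 18 cholesterol synthesis promoters (83.3%). The median changes of these lists were 0.04 and -0.27. All these shares describe letters, not binding. The 150 bases before the start are given 5′ to 3′ on the strand of the gene, with CCAAT and TTTGAA in capitals for PLK1 (chr16:23678739-23678888, plus strand) and CCNB1 (chr5:69167000-69167149, plus strand), and the E2F form, or its complement, in capitals for PCNA (chr20:5126623-5126772, minus strand) and E2F1 (chr20:33686386-33686535, minus strand), where CCAAT was left in lower case.
PLK1: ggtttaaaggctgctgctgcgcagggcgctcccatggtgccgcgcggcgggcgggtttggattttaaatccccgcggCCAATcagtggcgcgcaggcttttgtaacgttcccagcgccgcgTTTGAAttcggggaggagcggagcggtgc
CCNB1: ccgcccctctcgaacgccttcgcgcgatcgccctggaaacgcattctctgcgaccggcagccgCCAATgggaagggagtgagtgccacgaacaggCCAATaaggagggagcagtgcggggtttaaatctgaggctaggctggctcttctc
PCNA: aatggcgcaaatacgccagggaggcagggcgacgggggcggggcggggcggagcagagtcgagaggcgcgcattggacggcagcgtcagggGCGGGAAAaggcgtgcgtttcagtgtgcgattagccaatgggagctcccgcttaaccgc
E2F1: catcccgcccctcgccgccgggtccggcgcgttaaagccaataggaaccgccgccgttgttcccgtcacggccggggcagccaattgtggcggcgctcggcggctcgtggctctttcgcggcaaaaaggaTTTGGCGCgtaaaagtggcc
The PLK1 stretch holds both elements, CCNB1 holds CCAAT at a pair of positions and no TTTGAA, and the stretches of PCNA and E2F1 hold an E2F form each.

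Genes that supply or protect replicating DNA fell with it. All but 1 of the 36 tested replication-dependent histone genes were lower (median -3.60), for instance H2BC11, with 775, 691 and 591 in DMSO and 24.3, 15.4 and 20.8 in trametinib (-5.07 ± 0.21, adjusted p = 6.13e-09), and H4C3, with -2.33 ± 0.15 (adjusted p = 5.84e-08). The exception was H3C6 (0.42 ± 0.35, adjusted p = 0.395). Histone genes have near-identical copies and only reads unique to 1 symbol were counted, so their single values are uncertain. Of 35 tested homologous recombination and Fanconi anaemia genes 26 were lower and 0 higher, and BRCA1 changed by -2.43 ± 0.19 (adjusted p = 2.94e-07). In nucleotide synthesis, 23 of 34 tested members were lower and 1, the adenylosuccinate synthase ADSS1 (1.27 ± 0.27, adjusted p = 0.00279), was higher. RRM2, the regulated subunit of ribonucleotide reductase, had 653, 770.2 and 833 in DMSO and 21.2, 36.2 and 37.3 in trametinib (-4.58 ± 0.22, adjusted p = 6.13e-09). TYMS, which makes thymidylate, changed by -2.95 ± 0.24 (adjusted p = 6.69e-07).

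Tubulins, the building blocks of the spindle and of other microtubules, were lower in 9 of 13 tested genes and higher in 0. TUBA1B had 778, 1233 and 1484 in DMSO and 194, 165 and 207 in trametinib (-2.63 ± 0.22, adjusted p = 1.3e-06), and TUBB 2138, 3488 and 4621 and 1009, 1117 and 1187 (-1.63 ± 0.23, adjusted p = 0.000323). Neither pair of groups overlapped. Tubulin genes also have close copies. Splicing factors of the hnRNP and SR families were lower in 20 of 31 tested genes and higher in 0 (median -0.64), with 13 without trametinib replicate 2 for the lower ones. SRSF7 and HNRNPAB changed by -1.35 ± 0.15 and -1.32 ± 0.18 (adjusted p = 1.65e-05 and 6.74e-05), whereas HNRNPA1 did not pass, at 187, 213 and 187 in DMSO and 211, 204 and 209.5 in trametinib (0.09 ± 0.15, adjusted p = 0.688).

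The translation machinery did not move as a block. Cytosolic ribosomal protein mRNAs had a median of 0.21, with 10 of 80 tested members higher (12.5%, against 15.6% over all genes) and 1, RPS23 of the decoding center (-0.73 ± 0.22, adjusted p = 0.0242), lower. These calls depended on single libraries. Those higher numbered 26 without DMSO replicate 1, 3 without DMSO replicate 2, 1 without trametinib replicate 1, 0 without trametinib replicate 2 and 2 without trametinib replicate 3. Those lower numbered 2 without DMSO replicate 2 or trametinib replicates 1 or 3 and 0 without trametinib replicate 2. RPL3, a core protein of the large subunit, had 14953, 12782 and 12944 in DMSO and 18138, 19381 and 17258 in trametinib, without overlap (0.43 ± 0.12, adjusted p = 0.0139). Its adjusted p was 0.0576 and 0.0674 without trametinib replicates 1 and 2. RPS6, the ribosomal substrate of S6 kinase, did not pass, with 9912, 7994 and 7531 against 9886, 10102 and 9227 (adjusted p = 0.269), and passed without DMSO replicate 1 (0.33, adjusted p = 0.0354). Ribosomal protein genes have processed copies in the genome, so single members may lose reads. The call of RPS23 was lost without DMSO replicate 3 or trametinib replicate 2 (adjusted p of up to 0.0931).

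Beside these input values, the footprints of the same genes went the other way. Over all genes, 23.8% were higher and 25.6% lower in footprints, with the same test on the 6 footprint libraries. Of the ribosomal protein genes 78 were lower in footprints and 0 higher, with a median of -0.95. RPL3 changed by -1.14 ± 0.16 in footprints (adjusted p = 0.000357). EEF2, the translocase of elongation, rose in input from 20626, 17097 and 19224 to 28179, 29569.7 and 29498 (0.62 ± 0.12, adjusted p = 0.00123) and changed by -0.69 ± 0.12 in footprints (adjusted p = 0.00132). EEF1G, a subunit of the factor that reloads elongation factor 1, changed by 0.65 ± 0.15 in input (adjusted p = 0.00362) and -1.41 ± 0.18 in footprints (adjusted p = 0.000223). In the list of 12 tested elongation and termination factors, 5 were higher and 3 lower in input. The other higher ones were EEF1A1, EEF1A2 and EEF1D, subunits of elongation factor 1, at 0.54, 0.58 and 0.48. The lower ones were ABCE1, which splits ribosomes after termination (-1.10 ± 0.15, adjusted p = 9.16e-05), and the release factors ETF1 and GSPT1 (-0.60 ± 0.20 and -0.65 ± 0.15, adjusted p = 0.0384 and 0.00378). EEF1A1 and EEF1A2 are close copies. The call of EEF1D was lost without DMSO replicate 2 or trametinib replicates 2 or 3 (adjusted p of up to 0.0911) and that of ETF1 without DMSO replicates 1 or 2 or trametinib replicates 2 or 3 (adjusted p of up to 0.157).

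**Figure D4:**
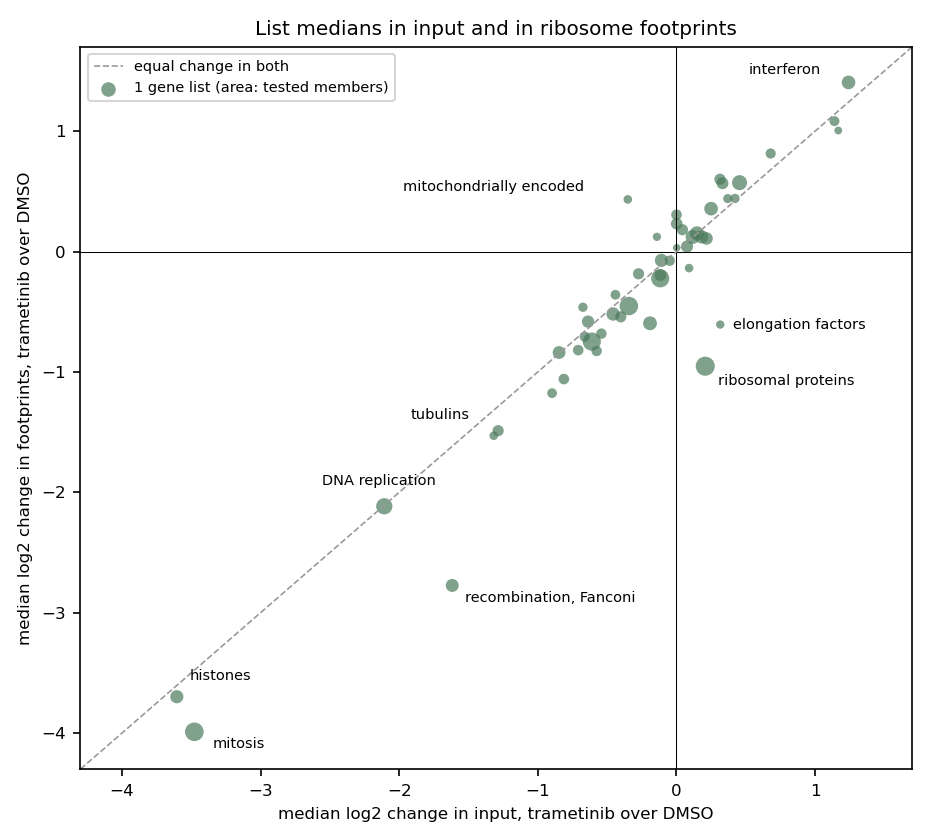
Median log2 change of each of 50 gene lists in footprints (vertical) against input (horizontal), both trametinib over DMSO, with the dashed line of equal change and point area by the number of tested members. Ribosomal proteins (input 0.21, footprints -0.95) and elongation factors (0.32 and -0.61) lie far below the line, while the DNA replication list (-2.11 and -2.12) lies on it.

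Among initiation factors and genes of ribosome assembly, those that passed in input were nearly all lower. Of 40 tested initiation factors and their regulators 12 were lower and 1, the helicase partner EIF4B (0.40 ± 0.13, adjusted p = 0.0261), was higher (0 without trametinib replicates 2 or 3). EIF4EBP1, the repressor of the cap-binding protein, had 98.6, 67.1 and 54.6 in DMSO and 27.3, 20.9 and 13.2 in trametinib (-1.83 ± 0.30, adjusted p = 0.000424). EIF4E, the cap-binding protein itself, was lower by less (-0.64 ± 0.16, adjusted p = 0.00664), as were the nucleotide exchange subunits EIF2B2 and EIF2B3 (-1.06 ± 0.19 and -1.26 ± 0.21, adjusted p = 0.000796 and 0.000469). In ribosome biogenesis and RNA polymerase I, 45 of 72 tested members were lower and 0 higher (1 without DMSO replicate 1), with a median of -0.61. NOP56, a core protein of the particles that methylate ribosomal RNA, had 659, 599.9 and 578 in DMSO and 256, 259 and 310.4 in trametinib, without overlap (-1.15 ± 0.15, adjusted p = 5.29e-05). BOP1, needed for the large subunit, and POLR1B, a catalytic subunit of RNA polymerase I, changed by -1.15 ± 0.17 and -0.69 ± 0.14 (adjusted p = 0.000193 and 0.00218). RNA polymerase II and III genes were lower in 9 of 25 and higher in 0. The number of lower ones fell to 5 without DMSO replicate 2 and 4 without trametinib replicates 1, 2 or 3. The call of EIF4B was lost without DMSO replicate 2 or trametinib replicates 2 or 3 (adjusted p of up to 0.107).

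Genes of the integrated stress response and serine synthesis that passed were lower, and this list had the widest spread of its median among DMSO libraries of the 50 lists. The factor ATF4 drives serine, asparagine and transfer RNA synthetase genes when amino acids are short. ATF4 had 2858, 1888 and 1602 in DMSO and 671, 868 and 749 in trametinib (-1.47 ± 0.20, adjusted p = 0.000103), and its footprints changed by -3.24 ± 0.53 (adjusted p = 0.00297). Of 25 tested genes of this response and of serine and one-carbon synthesis, 14 were lower and 0 higher, with a median of -1.29. PSAT1, a serine synthesis enzyme, had 1833, 697 and 455 in DMSO and 89.0, 114 and 94.3 in trametinib (-3.33 ± 0.57, adjusted p = 0.00574). TRIB3, a pseudokinase induced by ATF4, had 1280.4, 409 and 304 and 32.4, 28.5 and 29.6 (-4.45 ± 0.68, adjusted p = 0.00349). In both, DMSO replicate 1 was the highest library and all DMSO libraries were above all trametinib libraries. DDIT3, the stress factor CHOP, and CHAC1, which degrades glutathione, changed by -4.03 ± 0.64 and -4.86 ± 0.46 (adjusted p = 0.00369 and 5.19e-06). Without DMSO replicate 1 the median of the list was -0.72, with 16 lower members. By library, the list median stood at 0.84, -0.20 and -0.63 in DMSO replicates 1 to 3 and between -1.21 and -1.005 in trametinib. Changes of PSAT1, TRIB3 and DDIT3 were -2.54, -3.56 and -3.26 without DMSO replicate 1.

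Aminoacyl-tRNA synthetases and amino acid transporters had the same order of DMSO libraries. Their medians stood at 0.29, -0.06 and -0.29 and at 0.22, -0.00 and -0.38 in DMSO replicates 1 to 3, and every trametinib library was lower. Of 22 tested cytosolic synthetases, 13 were lower and 1, QARS1, was higher. The lower ones numbered 8 without trametinib replicate 1. MARS1 and YARS1, the methionine and tyrosine enzymes, changed by -2.26 ± 0.22 and -2.38 ± 0.32 (adjusted p = 4.1e-06 and 0.000373). QARS1, the glutamine enzyme, had 1028, 956 and 1156 in DMSO and 1494, 1602 and 1610.2 in trametinib (0.58 ± 0.13, adjusted p = 0.00409). Of 21 tested transporters 10 were lower (6 without trametinib replicates 2 or 3) and 4 higher. SLC7A5, the leucine carrier LAT1, had 2203, 778 and 873 in DMSO and 165, 191 and 240.2 in trametinib (-2.69 ± 0.45, adjusted p = 0.00423). SLC7A1, an arginine carrier, changed by -2.32 ± 0.33 (adjusted p = 0.000487), while SLC43A2, a carrier of large neutral amino acids, changed by 1.37 ± 0.21 (adjusted p = 0.000199). The other 3 higher ones were SLC7A8, SLC1A3 and SLC38A10, at 1.25, 1.13 and 0.88. In the unfolded protein response 3 of 25 tested genes were higher (1 without trametinib replicate 2), 2 were lower (4 without DMSO replicate 2 and 1 without trametinib replicates 1, 2 or 3) and the median was 0.04. These shares of 12% and 8% lay below the 15.6% and 16.7% over all genes. The higher ones were the chaperones CALR and CANX and the disulfide isomerase P4HB, at 0.68, 0.48 and 0.46, and the lower ones DNAJB11 and HERPUD1, at -0.79 and -0.87. The call of SLC7A8 was lost without trametinib replicate 3 (adjusted p = 0.0567), that of SLC1A3 without trametinib replicate 2 (adjusted p = 0.057), that of CANX without trametinib replicate 2 (adjusted p = 0.108), that of P4HB without trametinib replicate 2 (adjusted p = 0.0562) and that of HERPUD1 without DMSO replicate 1 or trametinib replicates 1, 2 or 3 (adjusted p of up to 0.0968). The change of SLC7A5 was -2.06 without DMSO replicate 1.

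**Figure D5:**
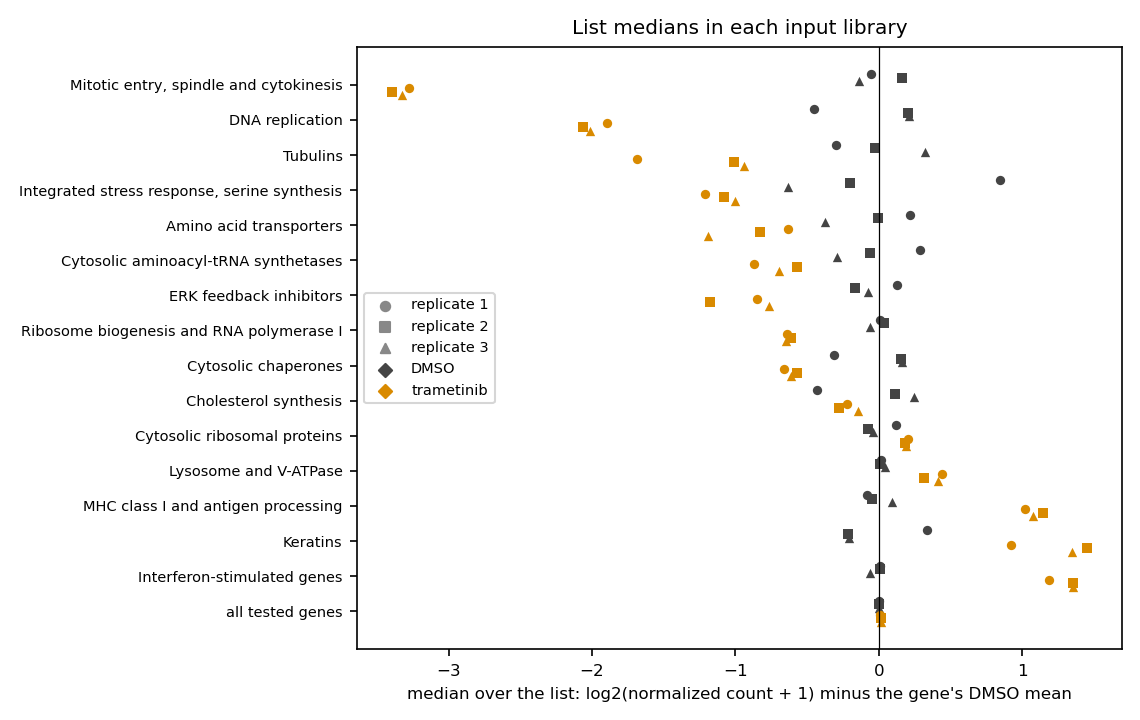
Median over the tested members of each list, in each input library, of log2(normalized count + 1) minus the gene's mean over the DMSO libraries, with symbols by replicate and colour by treatment. DMSO replicate 1 lies at 0.84 for the integrated stress response list and replicate 3 at -0.63, while the mitotic list lies below -3 in each trametinib library.

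Chaperone and proteasome genes that passed were nearly all lower. Of 20 tested chaperones, 12 were lower and 1, the small heat shock protein HSPB1 (1.72 ± 0.42, adjusted p = 0.0212), was higher. CCT2, a subunit of the chaperonin that folds actin and tubulin, had 1251, 1444 and 1105 in DMSO and 754, 865 and 691 in trametinib (-0.72 ± 0.15, adjusted p = 0.00232), and HSPH1 changed by -1.09 ± 0.21 (adjusted p = 0.00169). HSPA8, the constitutive HSP70, had 2890.3, 6741 and 8263 and 4081, 4282 and 4321, with overlapping groups and DMSO replicate 1 lowest (adjusted p = 0.325). Without that library its change was -0.83 (adjusted p = 4.31e-05). Of 37 tested proteasome genes 19 were lower and 0 higher (median -0.46). The lower ones numbered 11 without DMSO replicate 2 or trametinib replicates 2 or 3 and 10 without trametinib replicate 1. PSMD14, the deubiquitinase of the proteasome lid, changed by -0.90 ± 0.15 (adjusted p = 0.000547). The call of HSPB1 was lost with no count minimum (adjusted p = 0.0846).

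In energy metabolism the medians of the lists were a little below 0. Nuclear-encoded respiratory chain and ATP synthase genes had a median of -0.12, with 10 lower and 1 higher of 72. The lower ones numbered 6 without DMSO replicate 2 and 2 without trametinib replicates 1 or 2. The higher one was UQCRB of complex III (0.49 ± 0.16, adjusted p = 0.0294), and the count of higher ones was 3 without DMSO replicate 3 and 0 without trametinib replicates 1 or 2. CYCS, cytochrome c, fell from 183, 169 and 169.9 to 79.9, 70.2 and 84.5 (-1.15 ± 0.17, adjusted p = 0.000165). ATP5F1A, the alpha subunit of ATP synthase, did not pass, with 4271, 4181 and 4341 against 3789.7, 4091 and 4162 (adjusted p = 0.61). Mitochondrial ribosomal proteins leaned lower as a list, with 67 of 75 changes below 0 (median -0.34). They were called lower in 19 of 75 (25.3%, against 16.7% over all genes) and higher in 0. By library, the list median was -0.11, -0.00 and 0.11 in DMSO replicates 1 to 3 and -0.36, -0.31 and -0.30 in trametinib replicates 1 to 3. The lower ones numbered 12 without DMSO replicate 2, 11 without trametinib replicate 1, 9 without trametinib replicate 2 and 10 without trametinib replicate 3, and the higher ones 1 without DMSO replicate 3. None of the 13 mitochondrially encoded mRNAs passed, and those lower numbered 1 without DMSO replicates 1 or 2 and 4 without trametinib replicate 3. In the glycolysis list 6 of 36 were higher (16.7%) and 7 lower (19.4%), near the 15.6% and 16.7% over all genes. There HK2, hexokinase 2, and LDHA, lactate dehydrogenase, changed by -0.79 ± 0.16 and -0.77 ± 0.16 (adjusted p = 0.00175 and 0.00223), while PFKFB3, which stimulates glycolysis through fructose 2,6-bisphosphate, rose from 80.3, 87.0 and 89.4 to 207, 250.2 and 309 (1.58 ± 0.19, adjusted p = 2.27e-05). The higher members numbered 3 without trametinib replicate 2, and the lower ones 11 without DMSO replicate 1. The call of UQCRB was lost without DMSO replicate 3 or trametinib replicates 1 or 2 (adjusted p of up to 0.118).

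Calls in lipid synthesis went in both directions, in shares near or below the 15.6% higher and 16.7% lower over all genes. In cholesterol synthesis 2 of 25 tested genes were higher (1 without trametinib replicates 1 or 2) and 4 lower (10 without DMSO replicate 1). The 2 and 4 genes were 8% and 16% of the tested members. TM7SF2, a sterol reductase, had 134, 104 and 141 in DMSO and 339, 348 and 363 in trametinib (1.47 ± 0.17, adjusted p = 1.46e-05). The lower members CYP51A1, EBP and STARD4, of sterol synthesis and transport, changed by -0.65, -1.199 and -0.99. In fatty acid synthesis 1 of 21 (4.76%), the elongase ELOVL6, was higher (0.55, with 0 without DMSO replicate 3 or trametinib replicates 1 or 2) and 3 (14.3%) were lower. The lower ones were ACSL5, an acyl-CoA synthetase (-1.02 ± 0.20, adjusted p = 0.00152), ACSS2 (-0.99) and HSD17B12 (-0.81). The call of ELOVL6 was lost without DMSO replicate 3 or trametinib replicates 1 or 2 (adjusted p of up to 0.137) and with DESeq2 (adjusted p = 0.0539).

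Lysosomal genes rose where they passed the test. Of 48 tested lysosome and V-ATPase genes 19 were higher and 0 lower (1 without DMSO replicates 2 or 3), with a median of 0.46. CTSH, a cathepsin, had 57.5, 68.9 and 80.5 in DMSO and 172, 189 and 165 in trametinib (1.34 ± 0.18, adjusted p = 8.2e-05), NEU1, the lysosomal sialidase, 60.2, 58.0 and 67.6 and 163, 179 and 155 (1.42 ± 0.17, adjusted p = 3.31e-05), and LAMP1, a membrane glycoprotein of lysosomes, 396, 343 and 421 and 576, 611 and 591 (0.62 ± 0.14, adjusted p = 0.00472). No groups overlapped. Autophagy genes were higher in 8 of 37 and lower in 3. The higher ones numbered 3 without DMSO replicate 2 or trametinib replicate 2 and 4 without trametinib replicates 1 or 3. The lower ones were ATG3, ATG4D and ATG16L1, at -0.61, -0.53 and -0.64, and numbered 0 without trametinib replicate 1 and 1 without trametinib replicates 2 or 3. OPTN, an autophagy receptor, changed by 1.21 ± 0.20 (adjusted p = 0.000364). The call of ATG3 was lost without trametinib replicates 1 or 3 (adjusted p of up to 0.085), that of ATG4D without DMSO replicate 3 or trametinib replicates 1, 2 or 3 (adjusted p of up to 0.121) and with DESeq2 (adjusted p = 0.0728) and that of ATG16L1 without trametinib replicates 1 or 2 (adjusted p of up to 0.07).

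Interferon-stimulated genes had the highest median of all lists, 1.24, with 30 of 39 tested members higher and 0 lower. IFIT1, which binds foreign RNA ends, had 6.39, 19.03 and 10.9 in DMSO and 142, 217 and 162 in trametinib (3.82 ± 0.31, adjusted p = 5.03e-07). ISG15, a ubiquitin-like modifier, had 219, 163 and 269 and 485, 509 and 545 (1.24 ± 0.18, adjusted p = 0.000148). The groups of both genes were separate, and the increase was larger for IFIT1. IRF1, a transcription factor that interferon induces, and PARP9, an interferon-induced ADP-ribosylation protein, changed by 2.35 ± 0.23 and 2.73 ± 0.21 (adjusted p = 3.17e-06 and 3.94e-07). In footprints 34 of the members were higher, with a median of 1.41.

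Genes of antigen presentation by MHC class I rose alongside in input mRNA. Of 19 tested genes 16 were higher and 0 lower (median 1.14). B2M, the light chain of all class I molecules, had 895, 779 and 743 in DMSO and 1995, 1750.4 and 1585 in trametinib (1.14 ± 0.14, adjusted p = 3.96e-05). PSMB9, an immunoproteasome subunit, had 20.99, 29.9 and 18.9 and 164, 212 and 186 (3.00 ± 0.22, adjusted p = 2.18e-07). TAP1, the peptide pump, and NLRC5, the transactivator of class I genes, changed by 1.05 ± 0.16 and 1.72 ± 0.25 (adjusted p = 0.000261 and 0.000147), and ERAP1, which trims peptides, by 1.93 ± 0.21 (adjusted p = 8.01e-06). HLA genes share reads among themselves, so that values of single HLA genes are uncertain.

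Promoters of 3 of these genes are shown for the interferon response element, searched as GAAANNGAA on both strands in the 250 upstream bases. It was present in 18 of 32 matched interferon-stimulated promoters (56.2%) and 7 of 15 MHC class I promoters (46.7%), against 5.30% of tested genes with a promoter and 7.06% of all promoters. It was also present in 12 of 32 promoters of replication-dependent histones (37.5%), a list with a median change of -3.60. The 150 bases before the start follow, from RefSeq (GRCh38.p14), on the strand of the gene, for IFIT1 (chr10:89392473-89392622, plus strand), ISG15 (chr1:1013347-1013496, plus strand) and TAP1 (chr6:32853705-32853854, minus strand), with the letters of every match to the element, or to its complement, in capitals.
IFIT1: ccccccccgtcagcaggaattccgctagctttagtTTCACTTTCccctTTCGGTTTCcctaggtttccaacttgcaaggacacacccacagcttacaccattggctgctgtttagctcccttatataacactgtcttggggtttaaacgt
ISG15: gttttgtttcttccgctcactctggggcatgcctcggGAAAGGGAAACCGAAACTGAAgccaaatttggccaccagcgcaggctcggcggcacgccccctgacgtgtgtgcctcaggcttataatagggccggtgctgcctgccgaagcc
TAP1: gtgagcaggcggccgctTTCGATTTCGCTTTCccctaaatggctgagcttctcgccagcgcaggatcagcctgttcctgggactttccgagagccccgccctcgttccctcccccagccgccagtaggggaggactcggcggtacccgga
IFIT1 holds the element at 2 positions, ISG15 at 3 and TAP1 at 2, and in ISG15 and TAP1 neighbouring matches share bases.

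Keratin and junction genes that passed were higher. Of 10 tested keratin list members 6 were higher and 0 lower. KRT19, a keratin of simple epithelia, had 4845, 3344 and 4193 in DMSO and 8779, 10307 and 10407 in trametinib (1.25 ± 0.15, adjusted p = 2.44e-05), and KRT8, 7378, 4980.3 and 5678 and 7928, 10680.4 and 10522 (0.69 ± 0.16, adjusted p = 0.00524). Of 20 tested epithelial and mesenchymal markers 9 were higher and 1 was lower (3 without DMSO replicate 2 and 2 without DMSO replicate 3). The higher genes included the tight junction genes TJP3 (269, 223 and 265 in DMSO, 730.0, 819.8 and 879.7 in trametinib, 1.68 ± 0.15, adjusted p = 1.55e-06) and CLDN3 (1.34 ± 0.26, adjusted p = 0.00142), and the laminin chain LAMA3 (2.20 ± 0.27, adjusted p = 2.87e-05). The lower gene was VIM, vimentin, the filament protein of mesenchymal cells. It was low throughout, at 18.3, 24.5 and 15.9 in DMSO and 2.02, 7.68 and 4.39 in trametinib (-2.05 ± 0.44, adjusted p = 0.00278). Another mesenchymal marker of the list, S100A4, was among the higher genes (1.62). Of 53 listed differentiation genes of the intestine, 43 were in the table and 15 reached the count minimum. Of the 15 tested, 4 were higher, among them the brush border peptidase DPP4 (26.5, 23.6 and 27.8 against 88.0, 71.3 and 83.4, 1.64 ± 0.22, adjusted p = 6.87e-05), and 3 lower. The others higher were the brush border genes USH1C and ESPN and the mucus protein FCGBP, at 1.36, 0.65 and 1.34. The lower ones were the carbonic anhydrase CA2, the factor KLF4 and MALL, at -0.96, -1.51 and -3.76. The call of ESPN was lost without trametinib replicate 3 (adjusted p = 0.0556) and that of KLF4 without trametinib replicates 2 or 3 (adjusted p of up to 0.0626). Changes of FCGBP and KLF4 were 1.95 and -0.89 without DMSO replicate 1.

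Genes of attachment to the matrix changed in both directions. Of 18 tested integrin genes and partners 8 were lower and 4 higher (1 without trametinib replicate 2). The higher ones were ITGB8, ITGA7, ITGAV and the integrin-linked kinase ILK, at 2.74, 0.88, 0.62 and 0.50. ITGA6, a laminin receptor subunit, had 534, 463 and 344 in DMSO and 132, 114 and 94.3 in trametinib (-1.97 ± 0.20, adjusted p = 4.53e-06), and ITGB1, the common beta subunit, 2257, 1195 and 1279.6 and 879.7, 593 and 636 (-1.17 ± 0.25, adjusted p = 0.00433). In footprints ITGB1 changed by -0.33 ± 0.23 (adjusted p = 0.266). Of 16 genes of the urokinase system and matrix proteases 7 were higher and 4 lower (2 without trametinib replicates 1 or 2). MMP7, matrilysin, had 9.13, 9.06 and 10.9 in DMSO and 62.7, 131 and 84.5 in trametinib (3.24 ± 0.32, adjusted p = 4.52e-06), while the protease inhibitor TIMP1 changed by -1.12 ± 0.27 (adjusted p = 0.00682). SERPINE2, a serine protease inhibitor, changed by -0.64. Another lower member was MYEOV, whose protein has no settled role in this system, with 129, 117 and 169 in DMSO and 0, 1.10 and 2.19 in trametinib. The call of ITGA7 was lost without trametinib replicate 2 (adjusted p = 0.0568), that of ITGAV without trametinib replicate 2 (adjusted p = 0.0504), that of ILK without DMSO replicate 1 or trametinib replicates 1, 2 or 3 (adjusted p of up to 0.121) and that of SERPINE2 without DMSO replicate 1 or trametinib replicates 1 or 2 (adjusted p of up to 0.151).

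Wnt signaling, which keeps intestinal stem cells, had a component list with a median of 0.25. Its members were higher in 17.9% and lower in 2.56%, against 15.6% and 16.7% over all genes. Of 39 tested components 7 were higher (2 without trametinib replicates 1 or 2 and 3 without trametinib replicate 3) and 1, the kinase CSNK1A1, was lower (-0.85, with 0 without DMSO replicate 3 or trametinib replicates 2 or 3). The Wnt receptors FZD2 and FZD7 changed by 1.203 ± 0.22 and 1.03 ± 0.21 (adjusted p = 0.000877 and 0.00219). Among 22 tested target and stemness genes 5 were higher (22.7%) and 4 lower (18.2%), not far from the shares over all genes. SOX9, a crypt progenitor factor, had 115, 116 and 168 in DMSO and 14.2, 12.1 and 19.7 in trametinib (-3.11 ± 0.26, adjusted p = 8.69e-07), and CD44, a hyaluronan receptor, 1643, 1580.4 and 1467 and 699.7, 778 and 688 (-1.11 ± 0.13, adjusted p = 2.45e-05). The other lower ones were CDCA7 and PHLDA1, at -2.41 and -0.90. The higher ones were the pathway inhibitors AXIN2 and NOTUM (2.28 ± 0.35 and 0.94 ± 0.23, adjusted p = 0.000242 and 0.00725), the crypt ephrin receptors EPHB2 and EPHB3 (0.67 and 0.97) and BAMBI (0.98). The call of CSNK1A1 was lost without DMSO replicate 3 or trametinib replicates 2 or 3 (adjusted p of up to 0.0734), that of PHLDA1 without trametinib replicates 1, 2 or 3 (adjusted p of up to 0.0699) and with no count minimum (adjusted p = 0.0602), that of EPHB2 without trametinib replicate 1 (adjusted p = 0.0663) and that of BAMBI without DMSO replicate 2 or trametinib replicates 2 or 3 (adjusted p of up to 0.109) and with DESeq2 (adjusted p = 0.0614).

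BMP and TGF-beta signaling, which opposes Wnt along the crypt, had 12 higher and 1 lower of 29 tested genes (median 0.33). Some direct targets of the pathway were among the higher genes, ID2 (1.58) included, while ID1 did not pass the test (0.04). ID3, an inhibitor of differentiation factors, had 159, 146 and 268 in DMSO and 888, 919.7 and 1087 in trametinib (2.34 ± 0.21, adjusted p = 2.3e-06), and SMAD7, the inhibitory SMAD, 1.83, 3.62 and 6.95 and 37.4, 42.8 and 46.1 (3.33 ± 0.38, adjusted p = 1.49e-05). The lower member was SMURF2, a ubiquitin ligase that removes receptors (-1.07 ± 0.15, adjusted p = 8.71e-05). YAP1, the effector of the Hippo pathway, had 285, 273 and 303 in DMSO and 52.6, 54.9 and 46.1 in trametinib (-2.48 ± 0.17, adjusted p = 1.34e-07), and its DNA-binding partner TEAD1 changed by -1.19 ± 0.18 (adjusted p = 0.000166). The YAP list as a whole had 4 higher and 4 lower of 30 (13.3% each, against 15.6% and 16.7% over all genes). Those higher numbered 7 without DMSO replicate 1. The other lower ones were the targets NT5E and F3, at -2.06 and -1.46. The higher ones were AMOT, VGLL4, PTPN14 and ARHGEF17, at 1.46, 1.13, 0.71 and 0.99, of which AMOT, VGLL4 and PTPN14 restrain YAP or TEAD. Among 12 tested Kruppel-like factors, KLF7 and KLF13 were higher (1.49 and 0.85) and KLF4 and KLF10 lower (-1.51 and -0.91). Each direction held 16.7% of this list, near the shares over all genes. The higher ones numbered 1 without DMSO replicate 2 or trametinib replicates 1 or 3, and the lower ones 1 without trametinib replicates 2 or 3. The call of KLF13 was lost without DMSO replicates 1 or 2 or trametinib replicates 1 or 3 (adjusted p of up to 0.193) and with DESeq2 (adjusted p = 0.0859). The change of NT5E was -1.43 without DMSO replicate 1.

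Genes of cell death and of the p53 response changed in both directions, in shares not far from the 15.6% higher and 16.7% lower over all genes. In the BCL2 family 3 of 13 tested genes were higher and 3 lower (23.1% each). BCL2L1, which encodes the survival protein BCL-XL, had 601, 277 and 347 in DMSO and 142, 183 and 181 in trametinib (-1.28 ± 0.26, adjusted p = 0.00259). BMF, a death-promoting BH3-only gene named here after its value was seen, had 0.913, 0 and 0 in DMSO and 32.4, 51.6 and 52.6 in trametinib (adjusted p = 1.32e-06). PMAIP1, the BH3-only gene NOXA, changed by -1.15 ± 0.26 (adjusted p = 0.00368) and BIK by 1.01 ± 0.20 (adjusted p = 0.00156). The other members called were BBC3, the BH3-only gene PUMA (0.82), and BCL2L12 (-2.04). The p53 list had 7 higher (21.9%) and 5 lower (15.6%) of 32, and those lower numbered 8 without DMSO replicate 1. The lower ones besides GDF15 were PLK3, SESN2, AEN and MDM4, at -2.77, -2.27, -0.92 and -0.83. GDF15, a stress cytokine that ATF4 also drives, had 2041, 689 and 588 and 48.5, 54.9 and 61.4 (-4.33 ± 0.59, adjusted p = 0.00218). The call of BBC3 was lost without DMSO replicates 2 or 3 or trametinib replicates 2 or 3 (adjusted p of up to 0.142) and that of SESN2 without trametinib replicates 1, 2 or 3 (adjusted p of up to 0.0617) and with no count minimum (adjusted p = 0.0667). Changes of GDF15 and SESN2 were -3.54 and -1.52 without DMSO replicate 1.

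Among NRF2 and selenoprotein genes 11 of 41 were higher and 3 lower (5 without DMSO replicate 2, 6 without DMSO replicate 3 and 1 without trametinib replicates 1 or 2). A pair of drug efflux pumps went opposite ways. ABCC2 had 396, 440.4 and 466 in DMSO and 2616, 2676 and 2555 in trametinib (2.59 ± 0.14, adjusted p = 1.03e-08), and ABCC3 141, 54.4 and 87.4 and 7.08, 9.88 and 12.1 (-3.27 ± 0.39, adjusted p = 3.29e-05). SELENOP, which carries selenium, changed by 2.29 ± 0.21 (adjusted p = 1.8e-06). The other lower ones were the cystine carrier SLC7A11, at -2.71, and the glutathione reductase GSR, at -0.54. Of 42 tested mTORC1, LARP1 and AKT regulators 9 were higher (5 without trametinib replicate 2) and 3, MTOR, RHEB and SESN2, were lower (-0.49, -0.78 and -2.27, with 5 without DMSO replicate 1 and 1 without trametinib replicates 1, 2 or 3). CASTOR2, an arginine sensor that restrains mTORC1, had 28.3, 28.1 and 41.7 in DMSO and 92.0, 80.1 and 109.7 in trametinib (1.52 ± 0.23, adjusted p = 0.000215). The call of SLC7A11 was lost without trametinib replicates 1, 2 or 3 (adjusted p of up to 0.11) and with no count minimum (adjusted p = 0.0764), that of GSR without trametinib replicates 1 or 2 (adjusted p of up to 0.0612) and that of MTOR without DMSO replicates 2 or 3 or trametinib replicates 1, 2 or 3 (adjusted p of up to 0.147). The change of SLC7A11 was -1.90 without DMSO replicate 1.

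The shares of all input counts, which use no scaling between libraries, give the weight of these classes. Ribosomal proteins took 11.6 ± 0.510% (SD, n = 3) of the counts in DMSO and 13.4 ± 0.110% in trametinib, and elongation factors 4.69 ± 0.530% and 6.71 ± 0.337%. Mitotic genes took 1.06 ± 0.119% and 0.175 ± 0.00958%, histones 1.08 ± 0.0830% and 0.132 ± 0.0157%, and ribosome biogenesis genes 1.08 ± 0.0601% and 0.750 ± 0.0247%. In these 5 lists the groups did not overlap, and the exact two-sided permutation test gave p = 0.1, the smallest it can give with 3 against 3 (adjusted over the lists, 0.147). Mitochondrially encoded mRNAs took 4.65 ± 0.243% and 4.197 ± 0.955%, with overlapping groups.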

How the data were processed

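The authors removed adapters with the FASTX-Toolkit, discarded reads that matched ribosomal or transfer RNA with Bowtie 1.2.2, and mapped the rest to Gencode V38 basic transcripts. Reads of 25 to 35 nt inside open reading frames of 1 gene symbol only were counted, and the deposited counts are raw. Reads shared by near-identical genes are therefore lost. The table also holds 12 normalized columns, which were not used, and 6 columns with the authors' own comparisons (DESeq2 1.46.0 log2 changes and adjusted p-values), which were not used either.

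The 6 input columns were grouped by the labels into DMSO and trametinib, 3 biological replicates each. Genes that reached 10 counts in 3 of these libraries were fitted with edgeR 4.0.16 (TMM factors, robust quasi-likelihood fit and test, treatment as the only term, R 4.3.3). Over the 10663 genes, the Benjamini-Hochberg adjustment was used with a threshold of 0.05. The 6 footprint columns were fitted in the same way on the same genes. Input depth of 2276693 to 2845568 counts a library leaves genes near the minimum with wide errors. The fit was tested on simulated counts with known changes. Alternatives were median-of-ratios scaling, library totals, DESeq2 1.42.0, limma 3.58.1 with a prior count of 2, no filter, a minimum of 50 counts, a 2-fold threshold, the replicate number as a block, and each library left out in turn.

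The 50 lists hold 1747 genes, of which 1709 were in the table. The members and lists were chosen with earlier results of these data known. A list is described by its called members and its median, with no test. Named were the key members of each list, up to 4 called members a list with the largest change, the 15 largest increases and decreases of all called genes, and up to 2 members a list against its main direction. All but the key members needed a mean of at least 50 normalized counts and groups without overlap. Some genes that meet this rule are not reported here. ADSS1, AEN, AMOT, ARHGEF17, ATG4D, BAMBI, BBC3, BMF, CDC25B, CDK6, CDKN1C, DUSP10, EBP, EEF1A1, EEF1A2, EEF1D, EPHB2, EPHB3, ESPN, ETF1, FCGBP, GSR, H3C6, HBEGF, ITGA7, ITGB8, KLF13, KLF7, MALL, MDM4, MRAS, MTOR, MUC16, P4HB, PHLDA1, PRR15L, PTPN14, SERPINE2, SLC1A3, SLC7A8, STARD4, TGFA, TNFSF10, UPP1 and VWF are outside this rule, were chosen after their values were seen and are named to complete small counts or as marked in the text. Promoters are from RefSeq (GRCh38.p14), with 8716 of the 10663 genes matched by symbol.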

Additional observations from a re-analysis of the deposited data

How the results depend on the processing

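The direction of the named genes held under all 14 alternatives tried, except for CDC25B and ID1, which were not called. CDC25B ranged from -0.34 to 0.0178 when 1 library was left out, and ID1 from -0.0662 to 0.189 over the alternatives. Of the 4990 genes called in any of the 15 fits, 0 were called in opposite directions by different fits. The numbers of higher and lower genes were 1661 and 1788 with median-of-ratios scaling, 1651 and 1795 with library totals, 1389 and 1582 with DESeq2, 1704 and 1759 with limma, 1721 and 1904 with no filter (14553 genes) and 1328 and 1417 with at least 50 counts (7372 genes). With a 2-fold minimum, which can only remove calls, they were 718 and 913. Leaving out 1 library gave 1090 to 1778 higher and 1228 to 1928 lower genes, with fewer samples in each fit. The median change of all tested genes moved by far less than 0.1 under every scaling.

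Replicate numbers were tried as a block. Deviations from the group means of same-numbered DMSO and trametinib libraries correlated with r = 0.0920, 0.0653 and 0.416 over 4771 genes. Pairs with different numbers ran from -0.400 to 0.345, and DMSO replicate 2 correlated most with trametinib replicate 1 (0.345). These values do not decide whether libraries of the same number are paired. The replicate block gave 2000 higher and 2057 lower genes, among them 1665 of the 1665 and 1771 of the 1782 called without it. Of the named genes, SLC7A5 and SLC7A11 were not called with the block (adjusted p = 0.0546 and 0.0747) and UPP1 was (adjusted p = 5.58e-08).

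Called members of lists stayed within 1.5 times in 608 of 700 refits for higher and 604 of 700 for lower members, list medians within the replicate spread in 644 of 700 for input and 373 of 450 for footprints, and the shares of input counts in 21 of 21. The cause of the others was not tested. Depth limits weak genes, and with 3 libraries a group a p-value rests on a spread that is itself poorly known.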

Other observations

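Genes outside the 50 lists held some of the strongest increases. ABCA1, the pump that loads cholesterol onto HDL, had 10.0, 9.06 and 9.93 normalized counts in the DMSO libraries and 97.1, 138 and 106 in the trametinib libraries (3.54 ± 0.26, adjusted p = 1.95e-07). TLR3, the endosomal sensor of double-stranded RNA, had 11.9, 9.06 and 7.95 and 81.9, 114 and 99.8 (3.33 ± 0.27, adjusted p = 4.82e-07). THBS1, the matrix protein thrombospondin 1, had 10.95, 19.9 and 20.9 and 99.1, 134 and 133 (2.82 ± 0.26, adjusted p = 1.96e-06). TRANK1, SECTM1, MATN2, CLIC3 and KLHDC8B changed by 3.51, 3.52, 3.08, 2.85 and 2.86. Genes were picked here only where the groups did not overlap, so their separation is no finding. On the other side, FGF19, an enterocyte hormone of bile acid control, had 290.2, 80.6 and 77.5 and 8.09, 3.29 and 1.10 (-5.10 ± 0.89, adjusted p = 0.00592). Without DMSO replicate 1 its change was -4.18, and without trametinib replicate 1 it was -6.01.

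A few mRNAs went from next to nothing to a clear signal. In 20 of the 1665 higher genes every DMSO library held at most 3 reads, and in 3 of them every DMSO library was at 0. These 3, named after their values were seen, were MUC16, the membrane mucin CA125, with 45.5, 21.9 and 47.2 in trametinib (at least 13.6-fold higher, against a floor of 3 reads per library), TNFSF10, the death ligand TRAIL, with 18.2, 10.97 and 16.5 (at least 5.41-fold higher), and PRR15L with 12.1, 13.2 and 12.1 (at least 4.43-fold higher). Genes with so few DMSO reads reached the count minimum only through the trametinib libraries, so that only increases could be called among them. Among the lower genes, 16 had at most 3 reads in every trametinib library, and these could be called only as decreases. MYEOV, an oncogene candidate on the same amplified region as CCND1 in other tumors, was one of them, at 129, 117 and 169 in DMSO and 0, 1.10 and 2.19 in trametinib. UPP1, uridine phosphorylase, had 486, 48.9 and 21.9 in DMSO and 4.04, 3.29 and 2.19 in trametinib and did not pass the test (adjusted p = 0.0831), with DMSO replicate 1 far above the other DMSO libraries. It passed without any 1 of the DMSO libraries, with changes of -3.43, -6.26 and -6.32 (adjusted p = 2.17e-05, 0.0118 and 0.0183) without replicates 1, 2 and 3, and with DESeq2 (adjusted p = 0.000128) and limma (adjusted p = 0.0131).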
